A study of Homo sapiens with 5 samples.

Results

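Translation initiation and elongation factors were examined in HLF cells, an established hepatocellular carcinoma line, as the genes whose symbol starts with EIF1 to EIF6 or with EEF1 or EEF2, without the eIF2 kinases. The rule found 60 genes of the 12468 genes listed in the 3 deposited tables, and all 60 were listed in each table. They comprised 10 EIF2 genes, 14 EIF3 genes, 13 EIF4 genes, 13 EEF genes and 10 genes of the EIF1, EIF5 and EIF6 families. Total RNA was sequenced from HLF cells with a control guide RNA (sgCtrl, USP28-Ctrl) or a guide RNA against USP28 (sgUsp28, USP28-KO). It was also sequenced from USP28-KO cells that carried a control vector (pRRL-Ctrl), pRRL with wildtype USP28 (USP28-WT) or pRRL with monomeric USP28 (USP28-M). The monomeric form bears a point mutation in the dimerization interface. All of the last 3 conditions therefore share the USP28 knockout, and per the study's methods knockout cells were picked as single clones, so that features of a clone cannot be told apart from the knockout. The series lists 1 sample for each of the 5 conditions.

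The values described here are average log2 CPM (the usual sequencing unit for the share of a library's reads that fall on a gene, here on a log2 scale) over all libraries of a fit, as the authors' edgeR gave them. Each gene has 2 such averages. The control-knockout average covers USP28-Ctrl and USP28-KO, and the reconstitution average covers the control vector, USP28-WT and USP28-M, whose 2 tables listed the same average for all 12342 genes and were therefore taken as 1 fit. The tables do not show how many libraries entered each fit. The remaining columns hold the authors' own comparisons of the conditions and were not used. The effect of USP28 loss or re-expression on these genes was therefore not analysed here, and no value belongs to a single library. The spread between libraries is unknown, no test was made, and all statements below describe levels. The USP28 mRNA itself was not checked, since an average over both genotypes cannot show the knockout. From the steps between the lowest values, the control-knockout average rested on about 7.69e+06 reads over all its libraries together, with 96.8% of the 1100 lowest genes within 0.1 reads of a whole number. For the reconstitution average this was about 3.05e+07 reads, with 68.5% of the lowest genes near a whole number, so that this estimate is less certain. HLF cells listed VIM (11.71 and 11.69 log2 CPM in the respective averages), KRT8 (11.18 and 12.02), KRT18 (10.66 and 11.21), CDH2 (7.72 and 8.06) and FN1 (6.32 and 5.20). Per kb of transcript, FN1 (3.17 and 2.05) lay below the median of all genes in both averages. Of 9 hepatocyte markers, 0 were listed in the control-knockout table and 1, SERPINA1 at 1.88 log2 CPM, in the reconstitution tables, and EPCAM, CDH1, the blood marker PTPRC and the endothelial marker PECAM1 were listed in none. HLF cells thus lacked defining hepatocyte markers at the levels the tables list.

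Initiation factors bring the initiator tRNA, the mRNA and the small ribosomal subunit together. The eIF2 complex carries the initiator tRNA and is recharged with GTP by eIF2B, eIF3 is the large scaffold on the small subunit, and the eIF4 factors bind and unwind the capped end of the mRNA. Elongation factors then deliver aminoacyl-tRNAs (eEF1A, recharged by eEF1B) and move the ribosome along (eEF2). Many mRNAs of this machinery begin with a C and a run of pyrimidines, the terminal oligopyrimidine (TOP) motif, through which their translation responds to mTOR.

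The annotated starts of 10 members are shown because these genes lay farthest apart between the averages, 5 in each direction. Near-identical copies and genes without a start sequence, such as EIF3E, were passed over. Each run spans 10 bases before and 20 bases from the start, 5′ to 3′ on the strand of the gene, from RefSeq on GRCh38.p14. Capitals mark the unbroken run of pyrimidines that begins at the start.
EIF4B, chr12:53006446-53006475, plus strand: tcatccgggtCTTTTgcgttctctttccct
EEF1G, chr11:62573872-62573901, minus strand: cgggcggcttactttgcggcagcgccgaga
EEF1A1, chr6:73521013-73521042, minus strand: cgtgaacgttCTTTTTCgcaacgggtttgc
EIF3F, chr11:7987327-7987356, plus strand: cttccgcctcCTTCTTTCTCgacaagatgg
EEF2K, chr16:22206268-22206297, plus strand: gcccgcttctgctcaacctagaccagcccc
EIF5B, chr2:99337379-99337408, plus strand: ctgagaactcacaccatatgtgtcctgttc
EIF3J, chr15:44537137-44537166, plus strand: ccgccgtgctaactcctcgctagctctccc
EIF5A2, chr3:170908618-170908647, minus strand: cccgtctcttggaactgccgcggccgccac
EIF2A, chr3:150546777-150546806, plus strand: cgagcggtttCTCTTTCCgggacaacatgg
EIF3M, chr11:32583821-32583850, plus strand: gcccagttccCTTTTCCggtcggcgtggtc
EIF4B, EEF1G, EEF1A1, EIF3F and EEF2K were higher in the reconstitution average, and EIF5B, EIF3J, EIF5A2, EIF2A and EIF3M were lower. The pyrimidine run was 10 bases long in EIF3F, 8 in EIF2A, 7 in EEF1A1 and EIF3M and 5 in EIF4B. Members with such a run therefore stood on both sides.

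To compare genes with each other, levels were expressed per kb of the longest protein-coding transcript in GENCODE release 29, which was found for 59 members (the pseudogene EEF1A1P9 had none). On this scale the median of all genes was 3.57 in the control-knockout average and 3.16 in the reconstitution average. The members had medians of 5.85 and 5.36, and 51 of 59 lay above the median of all genes in the control-knockout average and 54 of 59 in the reconstitution average. In each average, 26 members were among the highest 10% of all genes. With this length the EIF3 genes had the highest group median, 3.27 log2 units above all genes (9.63-fold) in the control-knockout average and 3.82 in the reconstitution average. EIF4 genes followed with 2.48 and 2.99, then the EIF1, EIF5 and EIF6 genes with 2.12 and 1.78, EIF2 genes with 1.57 and 1.61, and EEF genes with 1.47 and 1.43. The EEF median is not a level of the elongation factors alone. It also covers enzymes that modify them, from -1.30 (EEF1AKMT3) to 0.75 (EEF1AKMT2) in the control-knockout average. There EEF1A1 (7.01), EEF1G (6.09), EEF2 (5.69), EEF1B2 (4.70) and EEF1D (3.54) lay above the EIF3 median. The order of the group medians depends on the length in the control-knockout average. With all exons as the length, the EIF1, EIF5 and EIF6 genes (2.45) passed the EIF4 genes (1.90), and EEF genes (1.27) passed EIF2 genes (1.23). Without scaling by length, the EIF1, EIF5 and EIF6 genes had the highest median (2.67), above EIF3 genes (2.51). With the longest transcript, levels per kb in the control-knockout average ranged over 11.9-fold among EIF3 genes and 15.4-fold among EIF2 genes. They ranged over 137-fold among EIF1, EIF5 and EIF6 genes, 150-fold among EIF4 genes and 318-fold among EEF genes. These ranges also depend on the length. With the median transcript length, EIF1, EIF5 and EIF6 genes ran from 5.53 (EIF5A2) to 9.58 (EIF5A) in the same average. EIF2 genes then had a wider range, from 4.28 (EIF2B5) to 9.46 (EIF2S3).

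The elongation machinery included the 2 members with the highest CPM. EEF1A1, the carrier of aminoacyl-tRNA, had 12.73 log2 CPM in the control-knockout average and 13.43 in the reconstitution average, where it was the highest of all listed genes. This corresponds to 6771 and 11034 CPM, or 62.0% and 65.3% of the summed CPM of the EEF genes. EEF2, the translocase, had 10.92 and 11.47 log2 CPM. EEF1G, a subunit of the eEF1B complex, had 10.26 and 11.02 log2 CPM. The eEF1B subunits were unequal per kb, with 9.65 for EEF1G, 8.26 for EEF1B2 and 7.10 for EEF1D in the control-knockout average and 10.42, 8.40 and 7.07 in the reconstitution average. The distance between EEF1B2 and EEF1D depends on the length. Before scaling they had 8.40 and 8.36 log2 CPM in the control-knockout average and 8.54 and 8.33 in the reconstitution average. With the median transcript length they had 8.91 and 8.70 in the control-knockout average, below EEF1G with 10.19. EEF1B2 and EEF1D are the subunits that exchange the nucleotide on eEF1A. EEF1E1, a scaffold protein of the multi-synthetase complex that shares the family name, lay lower at 5.76 and 5.37 per kb.

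The mRNAs of enzymes that modify elongation factors were far less abundant than those of their substrates. EEF2K, the kinase that inactivates eEF2, had 5.36 and 5.93 log2 CPM, which is 2.47 and 3.05 per kb. EEF2KMT, which methylates eEF2, had 3.21 in both averages per kb. The eEF1A lysine methyltransferases EEF1AKMT1, EEF1AKMT2 and EEF1AKMT3 had 3.09, 4.32 and 2.26 per kb in the control-knockout average. EEF1AKMT1 was the member with the fewest reads, about 68.0 in the control-knockout average and 209.9 in the reconstitution average. EEF1AKNMT, which methylates eEF1A at a lysine and at its amino terminus, had 3.97 and 3.82 per kb. The second eEF1A gene of the rule, EEF1A2, was not among the listed genes, nor were EEF1AKMT4, EIF2S3B, EIF4E1B, EIF4E3 and EIF4EBP3.

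**Figure D1:**
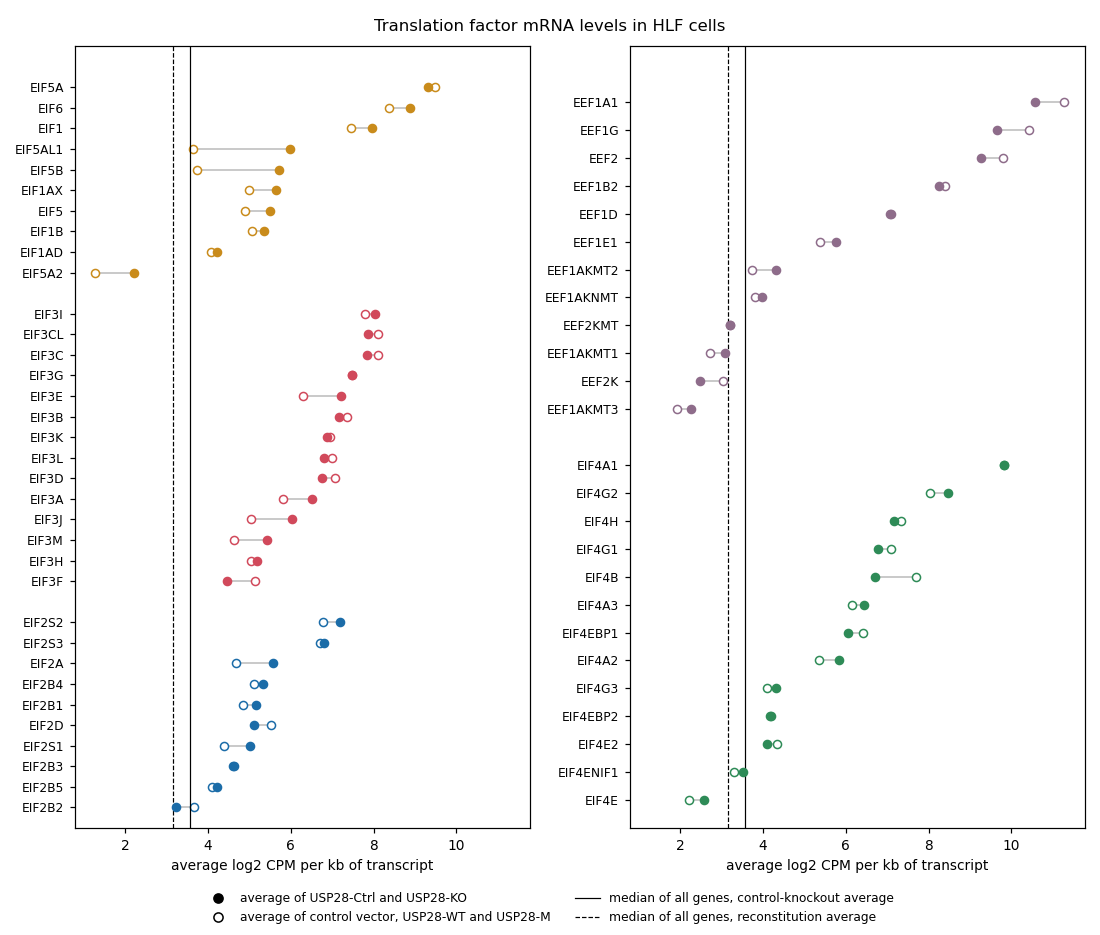
Average log2 CPM per kb of transcript for 59 members, grouped by family and ordered by the control-knockout average (filled) with the reconstitution average (open) on the same line. Vertical lines mark the medians of all genes, 3.57 (solid) and 3.16 (dashed). With the longest transcript as the length, EEF1A1 is highest with 10.57 and 11.28, and EIF5A2 is lowest with 2.22 and 1.29. The place of EIF5A2 depends on the length. With the median transcript length it has 5.53 and 4.59, above EEF1AKMT1 with 3.34 and 2.98.

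Among the EIF4 genes, paralogues differed widely in level. The helicase EIF4A1 had 10.63 log2 CPM in the control-knockout average and 10.64 in the reconstitution average. Its paralogue EIF4A2 had 6.79 and 6.30, so that EIF4A1 was 15.7-fold and 22.2-fold higher per kb. EIF4A3, the related helicase of the exon junction complex, had 6.43 and 6.15 per kb, against 5.85 and 5.36 for EIF4A2. The order of EIF4A2 and EIF4A3 cannot be fixed, since with the median transcript length EIF4A2 had 7.23 and 6.75 and EIF4A3 had 7.01 and 6.73.

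Scaffold genes were led by EIF4G2, which encodes a relative of eIF4G without the cap-binding protein's docking site. Per kb, EIF4G2 had 8.46 and 8.03, EIF4G1 had 6.79 and 7.10, and EIF4G3 had 4.32 and 4.10. EIF4G1 was thus 5.57-fold and 8.01-fold above EIF4G3, and with the median transcript length it was 1.67 and 2.19 log2 units above. The cap-binding protein EIF4E had 6.12 and 5.75 log2 CPM, and its relative EIF4E2 had 5.92 and 6.16. Their order per kb cannot be fixed. In the control-knockout average the level of EIF4E minus that of EIF4E2 was -1.51 with the longest transcript, which for EIF4E is 11523 bases, and 0.49 with the median transcript length. In the reconstitution average these values were -2.13 and -0.12. The cofactors EIF4B and EIF4H, which stimulate the helicase, had 8.77 and 8.58 log2 CPM in the control-knockout average, and 9.74 and 8.75 in the reconstitution average.

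Inhibitors that compete with eIF4G for eIF4E were present through 2 of the EIF4EBP genes. EIF4EBP2 had 7.06 and 7.02 log2 CPM and EIF4EBP1 had 6.08 and 6.44. Per kb, where the transcript of EIF4EBP1 is 1020 bases and that of EIF4EBP2 7257 bases, EIF4EBP1 was 3.60-fold and 4.74-fold above EIF4EBP2. EIF4ENIF1, which shuttles eIF4E into the nucleus, had 3.52 and 3.31 per kb and was close to the median of all genes.

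The 13 subunits of eIF3 ranged from 4.45 (EIF3F) to 8.02 (EIF3I) per kb in the control-knockout average, with a median of 6.80. In the reconstitution average they ranged from 4.64 (EIF3M) to 8.11 (EIF3C). EIF3I and EIF3G had 8.02 and 7.47 per kb, EIF3B, which binds both, had 7.17, and EIF3A, the largest subunit, had 6.52. EIF3D, which can itself contact the cap, had 6.75 and 7.08 in the respective averages. The longest transcript of EIF3F has 7540 bases. With the median transcript length EIF3F had 7.80 per kb in the control-knockout average, which was above EIF3H (7.51) and EIF3A (7.09) on the same scale. There EIF3C (10.20) also stood above EIF3I (9.09), and EIF3B (8.76) above EIF3G (8.10). In the reconstitution average EIF3M then had 7.35, above EIF3A with 6.38. The ends of the range and the order of these subunits thus depend on the length. EIF3C and EIF3CL are near-identical copies, and their values lay only 0.016 and 0.018 log2 CPM apart. Reads of these copies cannot be told apart, so both values are uncertain.

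EIF2S2 and EIF2S3, for the beta and gamma subunits of eIF2, had 7.19 and 6.80 per kb in the control-knockout average and 6.77 and 6.71 in the reconstitution average. EIF2S1, for the alpha subunit that the stress kinases phosphorylate, had 5.01 and 4.38. With the median transcript length EIF2S1 had 7.34 and 6.71, against 7.19 and 6.77 for EIF2S2 and 9.46 and 9.37 for EIF2S3. The distance between EIF2S1 and EIF2S2 thus depends on the length. With the longest transcript, the 5 subunits of the exchange factor eIF2B lay between 3.24 (EIF2B2) and 5.33 (EIF2B4) in the control-knockout average. In the reconstitution average they lay between 3.67 and 5.11. All of them were below EIF2S2 and EIF2S3 in both averages. EIF2A and EIF2D, which can deliver initiator tRNA without eIF2, had 5.57 and 5.11 in the control-knockout average and 4.67 and 5.53 in the reconstitution average.

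Of the factors outside these groups, EIF5A, a hypusinated factor for elongation and termination, was highest per kb with 9.32 and 9.47. Its paralogue EIF5A2 had 2.22 and 1.29, so that EIF5A was 7.09 and 8.19 log2 units higher, or 4.05 and 5.15 with the median transcript length. EIF1, which guards start codon choice, had 9.19 and 8.68 log2 CPM and EIF6, which keeps the ribosomal subunits apart, 9.24 and 8.75. EIF1B was lower than EIF1 per kb by 2.63 and 2.39 log2 units. EIF1AX had 7.80 and 7.13 log2 CPM, EIF5, which activates the GTPase of eIF2, had 8.07 and 7.46, and EIF1AD had 5.76 and 5.59.

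A list of 36 other genes of the pathway (among them eIF2 kinases and phosphatase subunits, release factors, poly(A)-binding proteins, mTOR components and enzymes for hypusine and diphthamide) was listed in full. Their median per kb was 4.36 in the control-knockout average and 4.55 in the reconstitution average, and 25 of 36 lay above the median of all genes in each. PABPC1, which binds the poly(A) tail and eIF4G, was highest in both, with 8.07 and 8.27 per kb.

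The order of members by level was nearly the same in both averages (Spearman's rho 0.943 over 59 members, and 0.947 over 10684 genes), as a description over genes of the same cell line. The averages come from different libraries and were normalized separately, so a difference between them is not an effect of any one condition, and condition, library and normalization cannot be told apart. Over all genes listed in both, the reconstitution average was lower by a median of 0.12 log2 units, and differences are given relative to this shift. Of the 60 members, 27 were then higher and 33 lower in the reconstitution average, with a median of -0.039. Of all 10976 genes listed in both, 5488 were higher and 5488 lower, as the centring sets. The middle 50% of members lay between -0.37 and 0.32, and that of all genes between -0.38 and 0.32.

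The most abundant elongation factors were higher in the reconstitution average, EEF1G by 0.89, EEF1A1 by 0.83 and EEF2 by 0.67. EIF4B had the highest difference of all members with 1.09, and EIF3F had 0.82. At the other end were EIF5AL1 with -2.21 and EIF5B, the GTPase that joins the ribosomal subunits, with -1.85. EIF5AL1 is a near-identical copy of EIF5A, and the pseudogene EEF1A1P9, with -1.08, is a copy of EEF1A1. Both copies went the opposite way from their parent genes, of which EIF5A had 0.28, and reads shared between copy and parent make these values uncertain. EIF5B had about 2330 reads in the control-knockout average and 2357 in the reconstitution average, although the latter rested on more reads in all. Within eIF3, EIF3J (-0.86), EIF3E (-0.79), EIF3M (-0.68) and EIF3A (-0.58) were lower, while EIF3D (0.45), EIF3C (0.38), EIF3L (0.32) and EIF3B (0.31) were higher. Of the group of EIF1, EIF5 and EIF6 genes, 9 of 10 were lower, all except EIF5A, against 5488 of 10976 over all genes. The 9 include the copy EIF5AL1. The median GC content of the transcripts in this group was 44.2%, against 48.1% for all genes, but EIF6, also among the 9, had 58.0%. In the other groups 4 of 10 EIF2, 8 of 14 EIF3, 7 of 13 EIF4 and 7 of 13 EEF genes were higher.

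GC content of the transcript moved with these differences. Over 59 members Spearman's rho was 0.633, and over 10684 genes it was 0.482, where points share libraries and base composition. Members with under 45% GC had a median of -0.47 (20 genes), against -0.33 for all such genes. Those with 45% to 55% had 0.15 (29 genes, all genes 0.17) and those with at least 55% had 0.21 (10 genes, all genes 0.18). EIF3F (40.6% GC) had the highest value of the 20 members under 45% GC, and EIF5AL1 (45.6%) the lowest of the 29 members in the middle class. EIF6 (58.0%) had the lowest value, -0.37, of the 10 members with at least 55% GC. The part of GC content in the differences was not tested.

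**Figure D2:**
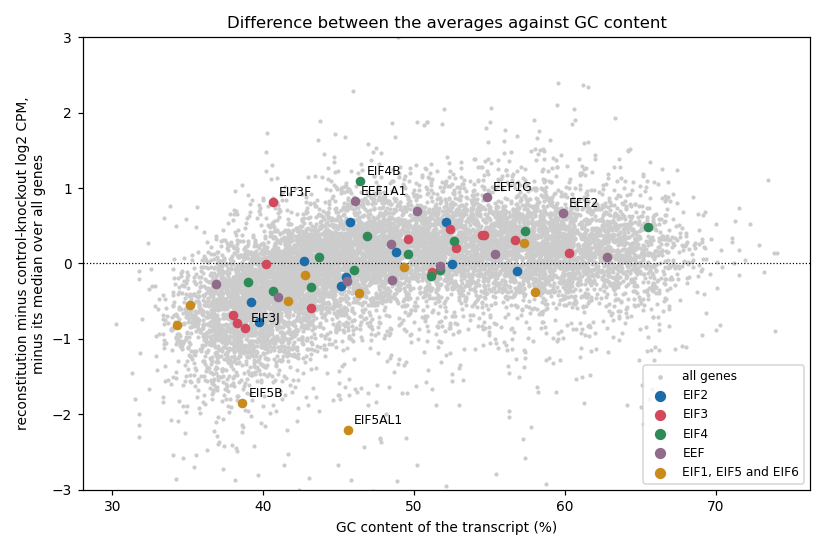
Difference between the averages (reconstitution minus control-knockout log2 CPM, minus its median over all genes) against the GC content of the longest coding transcript, with members coloured by group and all genes in grey. Genes beyond 3 log2 units are not drawn (12 genes). EIF3F, EIF4B and EEF1A1 lie above the grey cloud's middle at their GC content, and EIF5B and EIF5AL1 below it.

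A TOP-like start, a C at the annotated start followed by at least 4 bases that are C or T, was searched on the strand of the gene alone, since a start has an orientation, in the RefSeq sequences, which 47 members had. It was found in 11 of 47 members (23.4%), 507 of 8828 listed genes with a sequence (5.74%) and 1104 of 27305 sequences in all (4.04%). These members were EEF1A1, EEF2, EIF2A, EIF2D, EIF2S3, EIF3D, EIF3F, EIF3K, EIF3M, EIF4A2 and EIF4B. Their median level was 6.72 per kb in the control-knockout average, against 5.58 for the 36 members without it. Over all listed genes with a sequence these medians were 4.18 with and 3.59 without such a start. Of the 11, 8 were higher in the reconstitution average and EIF2A, EIF3M and EIF4A2 were lower, with a median of 0.45, while 13 of the 36 others were higher, with a median of -0.093. Over all listed genes 269 of 507 with such a start and 4228 of 8321 without it were higher, with medians of 0.029 and 0.0091. The median GC content of the 11 members was 46.1%, and that of the other members was 47.7%. When the motif could begin up to 5 bases from the annotated start, 19 of 47 members (40.4%), 2043 of 8828 listed genes (23.1%) and 21.1% of all sequences had it. The median difference was then 0.21 for members with it and -0.093 for the 28 members without it. Over all listed genes these medians were 0.013 and 0.0096. The match describes letters at an annotated start, which may differ from the start used in HLF cells.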

How the data were processed

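RNA sequencing of HLF cells covered 5 conditions with 1 listed sample each. According to the submitters' processing notes and the study's methods, the authors used bcl2fastq 2.20, aligned reads with STAR 2.5.4 and compared conditions with edgeR 3.26.8. The notes name hg19. The counting, annotation and filter on low genes are not given in the sources used here. The deposited tables hold, per NCBI gene ID, an average log2 CPM over all libraries of the fit, which is used here as the authors' mean. They also hold the authors' own fold changes, p-values and adjusted p-values (and F statistics for the reconstituted cells), which were neither used nor printed. In the USP28-KO table the header lacks a name for the gene ID, so the average was taken as the fourth value of each row.

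The members, lists and groups were chosen with earlier results of these data known. The comparison of the 2 averages, the rule for the starts shown, the search for pyrimidine starts and the GC classes were chosen after the levels had been seen. Named genes are members, ordered by role. Length and GC content came from GENCODE release 29 (GRCh38), joined on NCBI gene ID, for 97.1% and 95.9% of the genes of the respective fits. Levels per kb are the average log2 CPM minus log2 of the length in kb. Starts came from RefSeq (GRCh38.p14), and no coordinate of hg19 was used. The search for read steps was tested on simulated data, made of whole read numbers with little noise. The step found for the reconstitution average, 0.0328 CPM per read, was smaller than any simulated. The simulation therefore does not bear on the read numbers of that average. Counting error was taken as a 95% interval of the median read number. The scripts ran in Python 3.11.15 with pandas 2.3.3, numpy 2.4.6, scipy 1.17.1 and, for drawing, matplotlib 3.10.9.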

Additional observations from a re-analysis of the deposited data

How the results depend on the processing

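The medians of the 5 groups were recomputed with other choices (those of the EIF1, EIF5 and EIF6 genes were added after seeing the data). Each stayed above the median of all genes, but the order of the groups changed. Because the average is on a log scale already, no pseudocount could be varied, and no replicate could be left out. With all exons as the length, the medians were 1.23 (EIF2), 2.79 (EIF3), 1.90 (EIF4), 1.27 (EEF) and 2.45 (EIF1, EIF5 and EIF6). With the median transcript length, EIF3 had 3.01, EIF4 1.88, EEF 1.19 and the EIF1, EIF5 and EIF6 genes 1.597. Without scaling by length the values were 1.05, 2.51, 1.73, 0.54 and 2.67 in the order of the first list. In the reconstitution average, EIF3 had 3.82, EIF4 2.99 and the EIF1, EIF5 and EIF6 genes 1.78. All other group values, among them those over genes in all tables and those without pseudogenes and near-identical copies, moved by less than the counting error of the group's median read number. With a pyrimidine start allowed up to 5 bases from the annotated one, a setting chosen after seeing the data, the median difference of the members that had it was 0.21 in place of 0.45. No paired analysis was possible because each condition has 1 listed sample and the averages hold no replicate numbers. Counting error is largest for the least abundant members, and the spread between libraries is unknown.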
